A study of Mus musculus with 40 samples.

Results

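The genes described here are 9 genes listed as myofibroblast genes and TGF-β stromal targets, measured in CT26 tumors. Which cells of these tumors expressed them was not tested. The genes are Acta2, Tagln, Myl9, Cnn1, Postn, Cthrc1, Fap, Pdgfrb and Tgfbi. They were picked by symbol from a count table of 54087 genes, each symbol matched 1 row, and all 9 were among the 14760 genes that passed the filter on low counts. CT26 is a colon carcinoma line of BALB/c origin. Each of 40 BALB/c mice, 6 to 12 weeks old, was injected under the skin with 1000000 CT26 cells, received mAbs on days 6, 9 and 12, and gave 1 tumor on day 13 for bulk mRNA sequencing. There were 8 groups of 5 mice. The controls received a mIgG2a isotype control (motavizumab). The single treatments were anti-PD1 FcS, an antibody against PD-1 with a silenced Fc part, anti-TGFb (clone 1D11, against all TGF-β isoforms), and anti-GARP:TGFb WT or anti-GARP:TGFb FcD (clone 58A2, against the complex of GARP and TGF-β1, with a normal Fc part or one that does not bind Fc receptors). The other 3 groups received anti-PD1 FcS together with anti-GARP:TGFb WT, with anti-GARP:TGFb FcD or with anti-TGFb. All groups carried the same cell line, and no group without a tumor was measured. Mice are named by their library number, 41 to 80.

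TGF-β binds a receptor kinase pair on stromal cells, and SMAD proteins then carry the signal to the nucleus. In fibroblasts this signal, together with serum response factor and its cofactors, switches on contractile and matrix genes, and the resulting myofibroblasts lay down and pull on the matrix of wounds and tumors. Acta2 encodes smooth muscle α-actin, Tagln the actin-binding protein transgelin, Myl9 a myosin regulatory light chain and Cnn1 calponin, and all are also genes of vascular smooth muscle. Postn encodes the matrix protein periostin, Cthrc1 a secreted protein with a short collagen repeat, and Fap a cell surface protease of activated fibroblasts. Pdgfrb encodes a PDGF receptor of fibroblasts and pericytes, and Tgfbi a secreted matrix protein named for its induction by TGF-β. In bulk RNA, fewer cells of a type and less RNA per cell cannot be told apart.

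The promoters of Acta2 and Myl9 are shown because these contractile genes varied together from mouse to mouse (given later) and because both windows held CArG-like letters, the kind of motif that serum response factor binds. The windows are the 250 bases before the gene start as RefSeq places it on GRCm38.p6, printed 5′ to 3′ on the gene's strand, with the CArG-like matches in capitals.
Acta2 (chr19:34255374-34255623, minus strand): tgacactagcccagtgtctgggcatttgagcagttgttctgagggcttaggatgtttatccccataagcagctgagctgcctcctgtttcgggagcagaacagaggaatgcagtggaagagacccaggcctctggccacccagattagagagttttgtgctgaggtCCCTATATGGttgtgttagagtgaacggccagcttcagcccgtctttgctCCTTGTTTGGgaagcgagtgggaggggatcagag
Myl9 (chr2:156775214-156775463, plus strand): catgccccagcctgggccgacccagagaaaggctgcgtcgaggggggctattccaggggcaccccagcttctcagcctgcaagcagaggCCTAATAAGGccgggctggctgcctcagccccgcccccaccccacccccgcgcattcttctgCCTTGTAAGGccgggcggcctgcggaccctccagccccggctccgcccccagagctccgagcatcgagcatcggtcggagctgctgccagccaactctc

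A match was CC, then 6 bases of which at least 5 were A or T, then GG, on either strand. The GENCODE annotation used for gene positions draws both genes from further upstream, so that 217 bases of the Acta2 window and 44 of the Myl9 window lie inside its genes. Acta2 and Myl9 each held 2 matches, at 84 and 34 and at 161 and 99 bases before the RefSeq start. Of 32841 promoter windows of this length, 8.59% held a match. The windows of Cnn1, Postn and Tgfbi held 0 matches. The letters CAGAC, searched on both strands as the core that SMAD proteins bind, occurred in the windows of Acta2, Postn and Tgfbi and in 42.2% of all windows. Postn has 2 windows in the table, and 1 of them held CAGAC. The windows of Tagln, Cthrc1, Fap and Pdgfrb were not analysed here.

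Between 11931730 and 20680548 reads were counted on genes per mouse (median 14030511), and no pair of mice of a group agreed within counting error (chi-square per degree of freedom 5.44 to 198 over 80 pairs). Transcripts of the Y chromosome were found in libraries 41 to 60 and Xist in libraries 61 to 80, and each group had 2 or 3 mice in either set. The summed level of 8 genes listed as markers of the carcinoma cells (Krt8, Krt18, Krt19, Epcam, Cdh1, Cdx2, Cldn4 and Cldn7) ran from 9.17 to 22.2 counts per 1000000 reads (CPM) in libraries 41 to 60 and from 25.6 to 525 CPM in libraries 61 to 80, highest in mice 71 (525), 77 (249) and 62 (102). Krt8 was at 0 in 3 mice and Epcam in 7 mice, while Cdx2 lay between 1.62 and 6.01 CPM in all 40, so these genes are called simple epithelial genes here and not tumor markers. Of other markers, the summed adipocyte level was 741 CPM in mouse 71 and 429 CPM in mouse 48 against a median of 47.6, and the summed skeletal muscle level was 245 CPM in mouse 52 against a median of 7.83. Mouse 77 had the highest summed leukocyte level (8157 CPM, median 2073) and the highest summed endothelial level (717 CPM, median 195). The part of these mixtures in the results below was not tested. Values without mice 71 and 77 leave out everything about those mice, not their mixture alone.

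The 9 genes were expressed at very unequal levels. Per kilobase of exon, the median over 40 mice was 52.8 CPM for Tgfbi and 26.03 CPM for Pdgfrb, against 5.40 for Acta2, 2.33 for Tagln, 2.23 for Postn, 1.79 for Myl9, 0.53 for Cthrc1, 0.29 for Fap and 0.058 for Cnn1. Tgfbi and Pdgfrb were therefore the most abundant transcripts of the 9, and calponin was close to the limit of detection, with a median of 2 reads per mouse and 7 mice at 0, which allows up to 3 reads per library. Among mice of the same group, Acta2, Tagln, Myl9, Cnn1, Postn, Cthrc1 and Fap were more variable than most genes. Their pooled within-group SD was 0.75 (Fap) to 1.24 (Postn) on the log2 CPM scale, while the median of all genes tested was 0.249. Pdgfrb (0.34) and Tgfbi (0.39) were steadier. Differences between group means made up 7.63% (Tgfbi) to 28.9% (Fap) of the variance of a member between mice, beside a median of 25.01% over all genes tested. These shares are not corrected for the number of groups, so part of each arises without any effect of treatment.

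**Figure D1:**
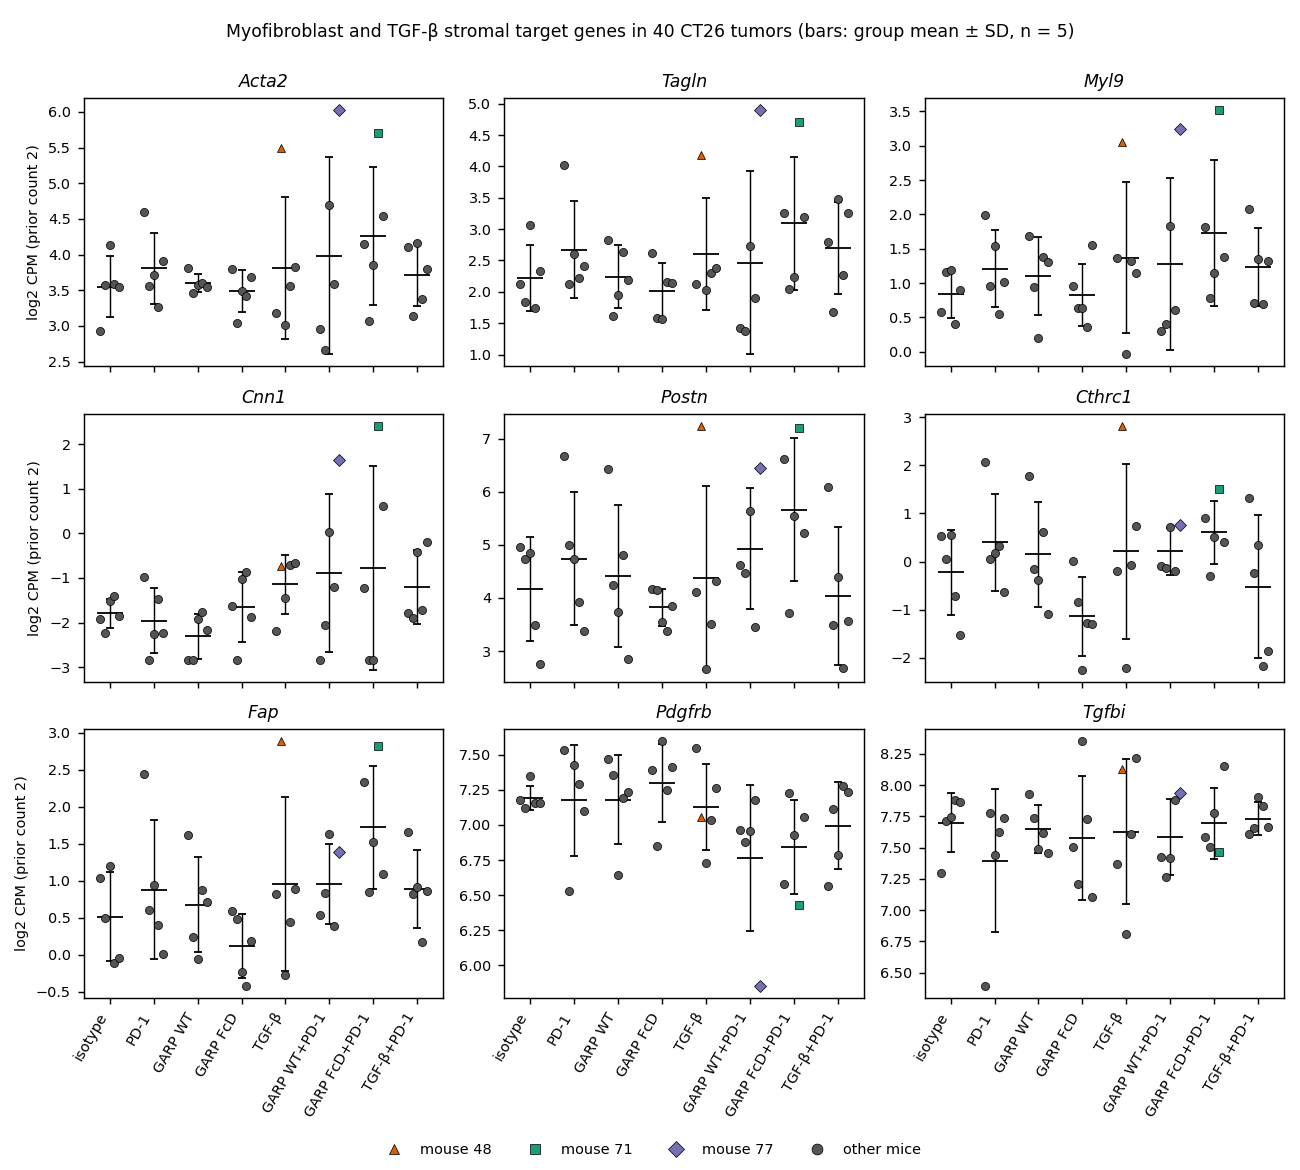
Level of each of the 9 genes (vertical axis, log2 CPM with a prior count of 2) in 40 mice, by treatment group on the horizontal axis. Each point is 1 mouse, horizontal lines with bars give the group mean ± SD (n = 5), and mice 48, 71 and 77 have their own symbols. These 3 mice stand at the top of their groups for Acta2, Tagln and Myl9, mouse 77 is the lowest for Pdgfrb, and every treated group overlaps the isotype control for every gene.

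Smooth muscle α-actin (Acta2, chr19:34241090-34255590 on GRCm38) was measured at 97 to 1043 reads per mouse. In isotype control mice Acta2 was at 7.48, 11.7, 17.4, 11.9 and 11.5 CPM (mean 11.99 ± 3.52, SD, n = 5). It was at 24.0, 11.7, 13.0, 9.44 and 14.9 CPM with anti-PD1 FcS, and at 8.89, 45.0, 7.90, 11.7 and 14.1 CPM with anti-TGFb. The 45.0 CPM belonged to mouse 48, and the other mice of both groups except mouse 47 (24.0 CPM) lay within the range of the controls. The values were 13.8, 10.9, 11.7, 12.1 and 11.5 CPM with anti-GARP:TGFb WT, and with anti-GARP:TGFb FcD 13.8, 8.10, 11.1, 10.6 and 12.7 CPM. These were the 2 narrowest groups, and all 10 values fell inside the range of the controls. With anti-GARP:TGFb WT + anti-PD1 FcS Acta2 was at 7.66, 6.16, 25.9, 11.8 and 64.9 CPM, with anti-GARP:TGFb FcD + anti-PD1 FcS at 17.6, 8.22, 14.3, 51.7 and 23.2 CPM, and with anti-TGFb + anti-PD1 FcS at 17.1, 8.70, 17.7, 10.3 and 13.7 CPM. The lowest and the highest mouse of the whole series, 55 and 77, were thus in the same group. Every treated group overlapped the controls for Acta2.

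Transgelin (Tagln, chr9:45929619-45936058) ran from 2.47 to 29.7 CPM over the 40 mice, with the highest values in mice 77 (29.7), 71 (26.2), 48 (18.1) and 47 (16.2). In isotype control mice it lay between 3.22 and 8.19 CPM. The gene overlaps Pcsk7 and the antisense gene Gm48529 on the other strand, and the libraries were stranded. Myl9 (chr2:156775420-156781658) ran from 0.84 to 11.3 CPM, again highest in mice 71 (11.3), 77 (9.34) and 48 (8.19). For both genes the 5 mice of each treated group overlapped the controls.

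Calponin (Cnn1, chr9:22099216-22109630) was high in few mice. In isotype control mice 1 to 3 reads were counted, that is 0.124, 0.0747, 0.208, 0.236 and 0.139 CPM. With anti-GARP:TGFb FcD + anti-PD1 FcS the values were 0.288, 0, 0, 5.19 and 1.39 CPM, from 4, 0, 0, 77 and 21 reads. The 5 mice of that group included both the highest value of the series and 2 of the 7 mice without a read. Cnn1 in mice given anti-GARP:TGFb WT + anti-PD1 FcS was at 0, 0.103, 0.885, 0.292 and 2.99 CPM, from 0, 2, 14, 4 and 48 reads. In the other 5 groups no mouse exceeded 0.741 CPM. Cnn1 passed the filter on low counts without either of mice 71 and 77, but not without both.

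Periostin (Postn, chr3:54361109-54391037) had more reads than Cthrc1 and Fap, 76 to 2188 per mouse. In isotype control mice Postn was at 30.8, 26.5, 28.7, 11.2 and 6.65 CPM (20.8 ± 11.1, SD, n = 5). With anti-PD1 FcS it was at 101, 31.7, 26.5, 15.1 and 10.3 CPM, and with anti-TGFb at 17.1, 151, 6.23, 11.3 and 19.9 CPM. A single mouse, 47 or 48, stood above 100 CPM in each of these groups while the other 4 stayed at 31.7 CPM or lower. The values of mice given anti-GARP:TGFb WT were 85.9, 18.9, 13.2, 27.7 and 7.09 CPM, and with anti-GARP:TGFb FcD 17.9, 17.6, 11.5, 10.3 and 14.3 CPM. The FcD antibody alone gave the lowest and narrowest group (14.3 ± 3.47 CPM), inside the range of the controls. With anti-GARP:TGFb WT + anti-PD1 FcS Postn was at 24.6, 22.1, 50.0, 10.9 and 87.0 CPM, with anti-GARP:TGFb FcD + anti-PD1 FcS at 98.4, 13.0, 46.8, 148 and 37.3 CPM, and with anti-TGFb + anti-PD1 FcS at 68.2, 11.1, 20.9, 6.26 and 11.6 CPM. In the FcD combination 4 of 5 mice were above all 5 controls, and mouse 50 was not.

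Fap (chr2:62500943-62574075) was low, with 9 to 103 reads per mouse. In isotype control mice it was at 1.92, 1.27, 2.15, 0.786 and 0.831 CPM. With anti-GARP:TGFb FcD alone it was at 1.36, 1.25, 0.708, 0.609 and 0.996 CPM. With anti-GARP:TGFb FcD + anti-PD1 FcS it was at 4.90, 1.66, 2.73, 6.95 and 1.99 CPM. The last 2 groups did not overlap, and 3 of 5 mice of the combination were above all controls. In the remaining groups Fap ran from 0.684 to 7.25 CPM, highest in mouse 48. Cthrc1 (chr15:39076932-39087121) ran from 0.071 to 6.94 CPM and was also highest in mice 48 (6.94) and 47 (4.06), with 1 to 89 reads per mouse.

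Pdgfrb (chr18:61045150-61085061) and Tgfbi (chr13:56609523-56639562) followed another order of mice. Mouse 71 was among the 5 highest for neither, mouse 47 was the third highest for Pdgfrb (185 CPM) but the lowest for Tgfbi, and mice 48 (280 CPM) and 77 (245 CPM) were among the 5 highest for Tgfbi but not for Pdgfrb. Pdgfrb was at 145, 139, 163, 143 and 142 CPM in isotype control mice. With anti-GARP:TGFb WT + anti-PD1 FcS it was at 125, 117, 124, 144 and 57.8 CPM, and with anti-GARP:TGFb FcD + anti-PD1 FcS at 95.4, 150, 122, 85.9 and 133 CPM. In each of these combinations 4 of 5 mice were below all controls, and mice 77 and 71, which were highest for the contractile genes, were the lowest of all 40 for Pdgfrb. Below all controls were also 3 of 5 mice with anti-TGFb, 3 with anti-TGFb + anti-PD1 FcS and 2 with anti-PD1 FcS. Above all controls were 1 mouse with anti-TGFb and 2 with anti-PD1 FcS. Tgfbi ran from 84.1 CPM in mouse 47 to 326 CPM in mouse 61, and its group means stayed between 177 and 213 CPM, with overlap between all groups and the controls.

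The order of the 8 group means was not resolved for any of the 9 genes. All 63 differences between neighbouring means were smaller than the larger SD of the pair on the log2 scale. Acta2, Tagln, Myl9, Cnn1, Postn, Cthrc1 and Fap had their highest mean log2 CPM in the anti-GARP:TGFb FcD + anti-PD1 FcS group. For 7 genes (those other than Pdgfrb and Tgfbi), mouse 71 was among the 5 highest of 40 mice for 7, mice 47 and 48 for 6 each and mouse 77 for 5. These 4 mice came from 4 different groups, and together they held 24 of the 35 highest places.

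In the comparison of all 8 groups, 0 of 9 members passed an adjusted p of 0.05, beside 0.0271% of all genes, and 2 had an unadjusted p under 0.05, Cnn1 and Fap (adjusted p = 0.129 and 0.183 by edgeR), beside 24.7% of all genes. The latter count was 1 without any one of mice 44, 51, 61, 70, 71, 74, 75 and 78 (18.7% to 23.7% of all genes). It was 3 without mouse 48 (30.0% of all genes), 53 (37.0%) or 77 (22.7%), and 0 without mice 71 and 77 together (15.1%). The first question of the design is whether any antibody changed these genes against the isotype control. With the 4 single treatments, 0 of 9 members had an adjusted p under 0.05 or an unadjusted p under 0.05 (edgeR's quasi-likelihood test with Benjamini-Hochberg adjustment over 14760 genes). Of all genes tested, 0% passed the adjusted threshold and 0.955% (anti-PD1 FcS), 0.969% (anti-GARP:TGFb WT), 0.474% (anti-GARP:TGFb FcD) and 2.32% (anti-TGFb) the unadjusted one. Anti-TGFb, the antibody that blocks all TGF-β isoforms, gave fold changes of 1.46 for Acta2, 1.502 for Tagln, 1.97 for Postn and 1.78 for Fap, none past a threshold. Without mouse 48 their log2 fold changes were -0.17, -0.09, -0.61 and -0.09. Myl9 (1.86-fold, log2 fold change 0.18 without mouse 48) and Cnn1 (2.21-fold, at least 0.98 on the log2 scale with any 1 mouse of these groups left out) did not turn sign. Without mice 71 and 77, Myl9 had an unadjusted p of 0.0413 (adjusted p = 1 by edgeR). The targets of TGF-β among the members did not separate either, with a log2 fold change of 0.0015 for Tgfbi and of 1.24 for Cthrc1 (SE 0.75), both with an adjusted p of 1 by edgeR, and without mouse 48 the value of Cthrc1 was -0.076.

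The groups of 5 mice overlapped the controls for all 9 members and all 7 treatments, whereas 0.271% (anti-PD1 FcS), 0.190% (anti-GARP:TGFb WT), 0.196% (anti-GARP:TGFb FcD), 0.183% (anti-TGFb), 2.97% (WT combination), 3.25% (FcD combination) and 3.03% (anti-TGFb combination) of all genes did not overlap.

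With the combinations, 0 of 9 members passed an adjusted p of 0.05 against the controls, and 0% of all genes did. At an unadjusted p under 0.05, 4 members were higher with anti-GARP:TGFb FcD + anti-PD1 FcS, where 10.7% of all genes were higher. They were Cnn1 (log2 fold change 3.10, SE 1.02), Postn (1.72, SE 0.78), Fap (1.38, SE 0.51) and Myl9 (1.29, SE 0.55), with adjusted p of 0.225, 0.277, 0.240 and 0.260 by edgeR. With anti-GARP:TGFb WT + anti-PD1 FcS, 1 member was higher at that level, Cnn1 (2.40, SE 1.03, adjusted p = 0.193 by edgeR), where 13.2% of all genes were. Without mouse 77 the log2 fold change of Cnn1 there was 1.01. With anti-TGFb + anti-PD1 FcS, 0 members had an unadjusted p under 0.05 beside 20.1% of all genes in either direction, and Acta2 and Postn both had a fold change of 1.13 after rounding. Without mice 71 and 77, 0 members were at that level with the FcD or the WT combination, where 12.6% and 5.90% of all genes were in either direction. With the FcD combination the log2 fold changes were then 1.23 for Postn and 1.005 for Fap (unadjusted p = 0.125 and 0.0657 by edgeR), 0.48 for Myl9 and, with no filter on low counts, 1.42 for Cnn1. The count for the FcD combination was 0 without mouse 71 alone (8.02% of all genes) and 2 without control mouse 74 (12.0%), and that for the WT combination was 0 without mouse 77 (5.85%) or control mouse 51 (20.6%). The FcD count was 7 without mouse 50 (29.9% of all genes), and 6 without mouse 60 (14.7%), without control mouse 63 (14.3%), by DESeq2 (9.48%) and with the compared groups alone (21.3%). The WT count was 3 without mouse 45 (23.8%), 55 (28.3%) or 69 (23.2%), 2 without control mouse 63 (16.6%) and by DESeq2 (11.3%), while it was 0 with the compared groups alone (14.4%).

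Marker genes of other cells were also higher with the FcD combination than in the controls at an unadjusted p under 0.05. They were 8 of 8 adipocyte markers (median log2 fold change 3.13), 7 of 8 simple epithelial genes (3.27), 4 of 6 tested skin epithelial markers (3.19), 4 of 10 tested pericyte and vascular smooth muscle markers (0.55), 3 of 10 endothelial markers (0.61) and 3 of 11 leukocyte markers (0.55), with 0 of 7 tested skeletal muscle markers. The summed adipocyte level was 55.4 to 741 CPM against 14.8 to 83.7 CPM in the controls, and the summed skin epithelial level 3.10 to 44.2 CPM against 3.77 to 6.05 CPM. With the WT combination 6 of 11 leukocyte markers (median log2 fold change 0.76), 5 of 10 endothelial markers (0.74), 2 of 10 tested pericyte and vascular smooth muscle markers (0.53), 2 of 6 tested skin epithelial markers (2.70), 2 of 8 simple epithelial genes (2.54) and 1 of 8 adipocyte markers (1.09) were higher at that level. Against anti-PD1 FcS alone, each of the WT and FcD combinations had 1 member at an unadjusted p under 0.05, again Cnn1, where 17.2% and 10.7% of all genes were in either direction, and the anti-TGFb combination had 0, where 17.1% were. At the adjusted threshold 0 members passed in these 3 comparisons, beside 0%, 0% and 0.00678% of all genes.

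Adding anti-PD1 FcS to anti-GARP:TGFb FcD gave the widest set of differences. In this comparison 7 members were higher and 1 lower at an unadjusted p under 0.05, beside 13.0% of all genes higher and 7.91% lower, and 0 members and 0% of all genes passed the adjusted threshold. Fap was 3.68-fold higher (log2 fold change 1.88, SE 0.53, adjusted p = 0.122 by edgeR), with 5 of 5 mice above all mice of the single treatment, as in 2.65% of all genes. Postn was 4.79-fold higher and Cthrc1 3.91-fold higher, each with 4 of 5 mice above. The contractile genes were 2.04-fold (Acta2), 2.43-fold (Myl9), 2.62-fold (Tagln) and 6.14-fold (Cnn1) higher. On the log2 scale these fold changes were 1.03, 1.28, 1.39 and 2.62. Without mouse 71 of the combination they were 0.49, 0.46, 0.73 and 0.96, in the same order. Pdgfrb was lower, with a fold change of 0.734. The adjusted p of these 8 genes lay between 0.122 and 0.221. Fap passed the adjusted threshold by DESeq2 (adjusted p = 0.0386), as did 0.635% of all genes, and Fap and Postn did with the compared groups alone in edgeR (0.0469 and 0.0473), as did 3.49% of all genes. The 8 members at an unadjusted p under 0.05 fell to 3 without mouse 61 of the single treatment, where 17.8% of all genes were, and to 2 without mouse 71, where 12.5% were. The same comparison with the WT antibody gave 1 member at an unadjusted p under 0.05, Cnn1 (log2 fold change 3.50, SE 1.16, adjusted p = 0.0963 by edgeR), beside 29.5% of all genes, and with anti-TGFb 0 members, beside 9.84%. The adjusted threshold was passed by 0 members and 0% of all genes in both. No interaction between anti-PD1 FcS and an anti-GARP:TGFb or anti-TGFb antibody had an adjusted p under 0.05 in any member (smallest adjusted p = 0.483 by edgeR, for Cnn1 with the WT antibody) or in any other gene (0%).

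The interactions set the effect of anti-PD1 FcS with a partner antibody against its effect alone. Contrasts of that effect between 2 partners were chosen after seeing the data. In the 3 contrasts 0 members and 0% of all genes passed an adjusted p of 0.05, with adjusted p by edgeR of at least 0.294 for the members between anti-GARP:TGFb FcD and anti-TGFb. At an unadjusted p under 0.05, the effect with anti-GARP:TGFb FcD was above that with anti-TGFb for 5 members, beside 16.8% of all genes in either direction. They were Fap (difference of log2 fold changes 2.33, SE 0.73), Postn (3.06, SE 1.11), Cthrc1 (3.15, SE 1.10), Myl9 (1.70, SE 0.77) and Acta2 (1.41, SE 0.69). The count was 1, Fap, without mouse 48 (7.36% of all genes). It was 3 without any one of mice 57, 58, 61, 66, 70 and 71, and without mice 71 and 77 together (13.5%). Between the WT and FcD antibodies 1 member, Fap, was at that level (-1.60, SE 0.73, adjusted p = 1 by edgeR), beside 1.79% of all genes. This count was 0 without mouse 42 (1.38% of all genes), 44 (1.69%) or 45 (1.79%). It was also 0 without any one of mice 55, 61, 69, 70 and 71, or without 71 and 77 (3.8%). It was 2 without mouse 41 (2.52%), 49 (2.21%) or 50 (1.97%), without any one of mice 56, 64 and 73, and by DESeq2 (1.42%). Without mouse 77 it was 5 (5.62%). Between the WT antibody and anti-TGFb it was Cnn1 (3.47, SE 1.56, adjusted p = 0.133 by edgeR), beside 30.7%. Here the count was 0 without mouse 42 (32.9% of all genes) or 49 (32.5%), without any one of mice 57, 77 and 79, or without 71 and 77 (25.8%). It was 2 without mouse 43 (28.6%) or 45 (32.3%), without any one of mice 55, 59, 69 and 72, and by DESeq2 (16.1%). Where no share of all genes is printed with a mouse left out, the count is not read against that share.

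Marker genes of other cells also differed in this comparison. All 8 adipocyte markers were higher with anti-GARP:TGFb FcD + anti-PD1 FcS than with anti-GARP:TGFb FcD at an unadjusted p under 0.05, with a median log2 fold change of 3.43 against 1.39 for the 9 members and -0.01 for all genes. The summed adipocyte level was 55.4 to 741 CPM in the combination and 15.9 to 49.0 CPM with the single treatment, so these 2 groups did not overlap, and Lep was at 0 in 10 of 40 mice. Of the simple epithelial genes 5 of 8 were higher and 1 lower, with sums of 10.98 to 525 CPM against 15.0 to 45.4 CPM. The summed skin epithelial level was 3.10 to 44.2 CPM against 4.09 to 12.5 CPM. The leukocyte markers had 5 of 11 genes higher, with sums of 2353 to 4102 CPM against 1312 to 2277 CPM. Without mice 71 and 77, a choice made after seeing the data, Fap (log2 fold change 1.504, unadjusted p = 0.00878) and Postn (1.76, unadjusted p = 0.0327) were the members left at that level in edgeR's test, where 17.4% of all genes were. Cnn1 was not tested there, and with no filter its log2 fold change was 0.95 (unadjusted p = 0.276 by edgeR).

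**Figure D2:**
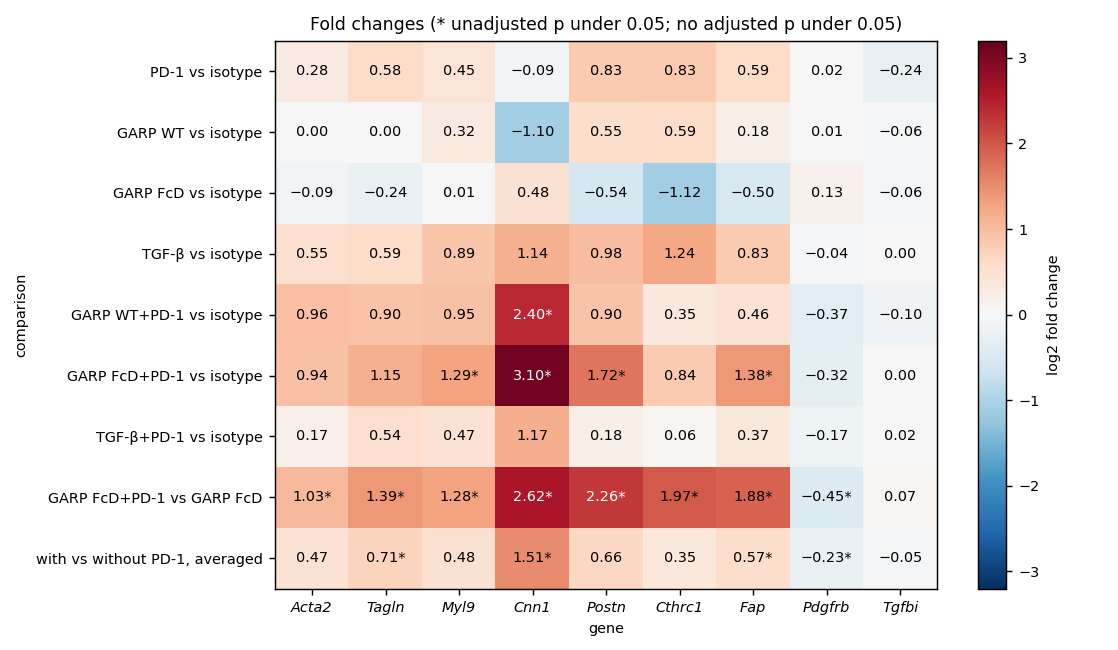
Log2 fold changes of the 9 genes (columns) in 9 comparisons (rows), printed in the cells and coloured from blue (lower) to red (higher), with a star where the unadjusted p was under 0.05. The row of anti-GARP:TGFb FcD + anti-PD1 FcS against anti-GARP:TGFb FcD has 8 stars, from -0.45 for Pdgfrb to 2.62 for Cnn1, and the 4 rows of single treatments have none.

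Averaged over the 4 pairs of groups with and without anti-PD1 FcS, 3 members were higher at an unadjusted p under 0.05, beside 13.3% of all genes. Tagln was 1.63-fold higher (SE of the log2 fold change 0.29), Cnn1 2.85-fold (SE 0.57) and Fap 1.49-fold (SE 0.26), with adjusted p of 0.132, 0.107 and 0.169 by edgeR. Pdgfrb was lower at that level (fold change 0.850, SE of the log2 fold change 0.099, adjusted p = 0.147), as were 10.1% of all genes. Of marker genes of other cells, 7 of 8 simple epithelial genes (median log2 fold change 1.72), 5 of 6 tested skin epithelial markers (2.12), 6 of 11 leukocyte markers (0.30), 4 of 10 endothelial markers (0.32), 3 of 10 tested pericyte and vascular smooth muscle markers (0.37), 1 of 7 tested skeletal muscle markers (0.32) and 2 of 8 adipocyte markers (1.00) were higher at that level too, 1 simple epithelial gene was lower, and their part in the result was not tested. No member passed an adjusted p of 0.05, where 87 genes did, 0.589% of those tested. Without mice 71 and 77, 0 members had an unadjusted p under 0.05, where 15.0% of all genes did, and without mouse 71 alone 2 members did, where 19.9% did. Without mouse 48, which had received anti-TGFb alone, 7 members had an unadjusted p under 0.05 (31.6% of all genes) and 4 members passed an adjusted p of 0.05 (Acta2, Tagln, Postn and Fap, 0.0196 to 0.0419), where 15.1% of all genes did. Leaving out mice 71 and 77 thus lowered the count of members and leaving out mouse 48 raised it. With no filter on low counts and without mice 71 and 77, Cnn1 had a log2 fold change of 0.74 (unadjusted p = 0.114 by edgeR). Within libraries 41 to 60 the averaged difference in mean log2 CPM was -0.02 for Acta2, -0.08 for Cnn1 and 0.45 for Fap, and within libraries 61 to 80 it was 0.67, 1.14 and 0.58, and there without mice 71 and 77 it was 0.37, 0.73 and 0.33. Pdgfrb was lower in both sets, by -0.18 and -0.33.

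Averaged over the groups with and without anti-PD1 FcS, the antibodies against TGF-β gave fewer differences. For anti-GARP:TGFb WT 0 members had an unadjusted p under 0.05, beside 5.77% of all genes, and with anti-GARP:TGFb FcD 1 member did, Cnn1 (log2 fold change 1.83, SE 0.79, adjusted p = 0.938 by edgeR), beside 2.47%. With anti-TGFb 0 members did, beside 14.1% of all genes. The fold changes of Acta2 were 1.27 (WT), 1.22 (FcD) and 1.16 (anti-TGFb), each smaller than its SE on the log2 scale. When anti-TGFb was set against the mean of both anti-GARP:TGFb antibodies, 0 members had an unadjusted p under 0.05, beside 21.1% of all genes, and the log2 fold changes ran from -0.10 (Acta2) to 0.49 (Cthrc1). No member passed an adjusted p of 0.05 in these 4 comparisons, where 0%, 0%, 0.00678% and 0.0271% of all genes did.

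The differences from the controls were also computed within each library set, of which libraries 61 to 80 hold mice 71 and 77. In mice given anti-GARP:TGFb WT + anti-PD1 FcS, the mean log2 CPM of Acta2 differed from the controls by -0.44 in libraries 41 to 60 (2 mice against 2) and by 1.02 in libraries 61 to 80 (3 against 3), and Postn by -0.29 and 1.48. Without mouse 77 the values in libraries 61 to 80 were 0.39 for Acta2 and 0.85 for Postn. With anti-GARP:TGFb FcD + anti-PD1 FcS both sets gave higher values, 0.44 and 1.37 for Acta2, 0.45 and 2.51 for Postn and 0.80 and 1.61 for Fap, but Cnn1 differed by -0.23 and 3.11. Without mouse 71, which leaves 1 mouse of that group in libraries 61 to 80, the values there were 0.79 for Acta2, 1.52 for Postn, 0.74 for Fap and 2.21 for Cnn1. The difference between the sets was not tested for these effects.

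Calponin went with the library set, and the sets also differed in Y chromosome transcripts and Xist, as given above. What made the sets differ was not tested. In libraries 61 to 80 Cnn1 was 4.67-fold higher than in libraries 41 to 60 (log2 fold change 2.22, SE 0.48, adjusted p = 0.00769 by edgeR, with the groups in the model), and it was the only member past the threshold, beside 1.68% of all genes. All 7 mice without a Cnn1 read were in libraries 41 to 60, where its highest value was 0.468 CPM, while libraries 61 to 80 ran from 0.0721 to 5.19 CPM. Without mice 71 and 77, and with no filter so that it could be tested, Cnn1 still passed (log2 fold change 1.67, adjusted p = 0.013 by edgeR), as did 1.21% of all genes. Of the simple epithelial genes 7 of 8, and of the skin epithelial genes 3 of 6 tested (Krt5, Krt15 and Dsp), passed the same test, all higher in libraries 61 to 80.

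**Figure D3:**
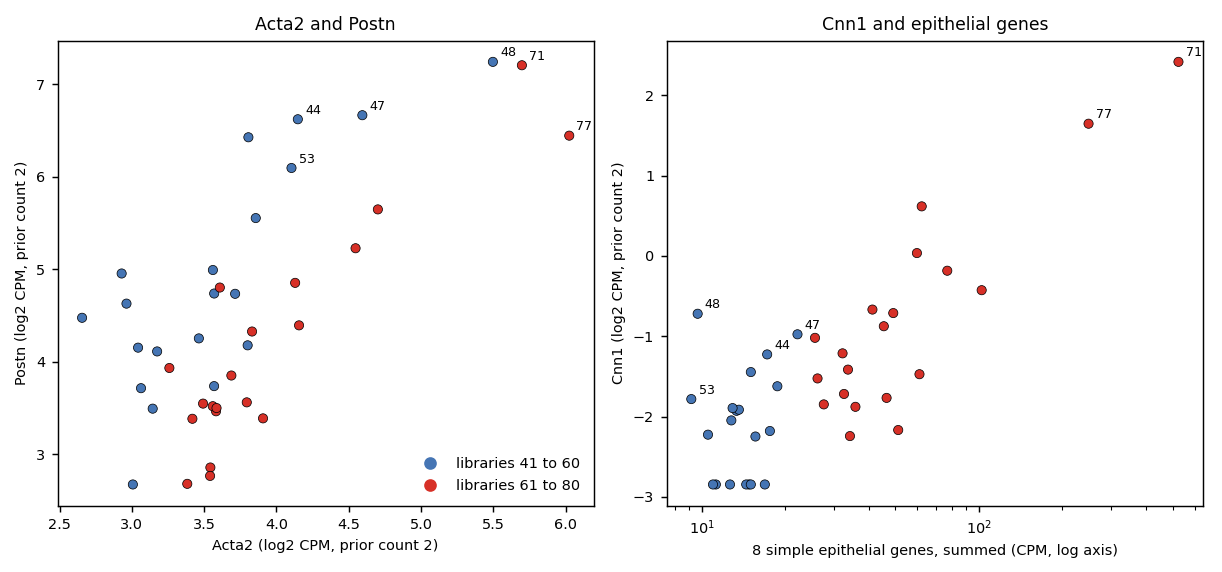
Left, Postn against Acta2, both in log2 CPM with a prior count of 2. Right, Cnn1 in log2 CPM against the summed level of the 8 simple epithelial genes in CPM on a logarithmic axis. Each point is 1 of 40 mice, coloured by library set, with 6 mice numbered. Mice 71 and 77 stand at the upper right of both panels, and mouse 48 is high for Acta2 and Postn at an epithelial sum of 9.67 CPM.

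The members fell into blocks that varied together between mice of the same group. Correlations were computed for 36 pairs over 40 mice on log2 CPM after subtraction of the group means, with permutation tests within groups (100000 resamples, whose smallest p is 1e-05) and adjustment over the 36 pairs. Adjusted p was under 0.05 for 18 pairs by Pearson's r and for 17 by Spearman's rho, the pair lost being Myl9 with Cnn1. Both genes of a pair were measured in the same library of each mouse, so a common depth and cell mixture enters each value.

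The contractile genes were correlated in 6 of 6 pairs. Acta2 and Tagln had a Pearson's r of 0.92 (Spearman's rho 0.85, adjusted permutation p = 4.5e-05), 0.87 without the 2 farthest mice (48 and 77), and 0.90 and 0.92 within the library sets. Cnn1 was the loosest of this block, at 0.59 with Myl9, which fell to 0.35 without mice 71 and 77. The fibroblast genes Postn, Cthrc1 and Fap were correlated in 3 of 3 pairs, with r between 0.85 and 0.91 and Spearman's rho between 0.81 and 0.89. Postn and Fap had r = 0.91 (adjusted permutation p = 4.5e-05), 0.88 without mice 48 and 53. Between the blocks 9 of 12 pairs passed, the exceptions being the pairs of Cnn1, and r ran from 0.22 (Cnn1 and Cthrc1) to 0.79 (Myl9 and Fap). The group means were taken over both library sets, and within libraries 41 to 60 and 61 to 80 the pairs of Cnn1 had higher r, 0.51 and 0.77 with Postn (0.32 over all mice), 0.43 and 0.54 with Cthrc1, and 0.52 and 0.62 with Fap (0.31 over all mice). Over both sets without mice 71 and 77, r of Cnn1 was 0.16 with Postn, 0.14 with Cthrc1 and 0.18 with Fap. In libraries 41 to 60 at most 6 Cnn1 reads were counted per mouse. Pdgfrb and Tgfbi passed with no other member, with r between -0.36 and 0.24 over 15 pairs. In libraries 61 to 80, r of Pdgfrb was -0.77 with Acta2, -0.79 with Tagln, -0.74 with Myl9, -0.66 with Cnn1 and -0.56 with Postn. It was -0.43 with Cthrc1, -0.37 with Fap and 0.07 with Tgfbi there. In libraries 41 to 60 it ran from -0.16 (Cnn1) to 0.13 (Fap). Over both sets, r with Acta2 was -0.36, and -0.16 without mice 48 and 77. Values within libraries 61 to 80 without mouse 77 are not given.

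**Figure D4:**
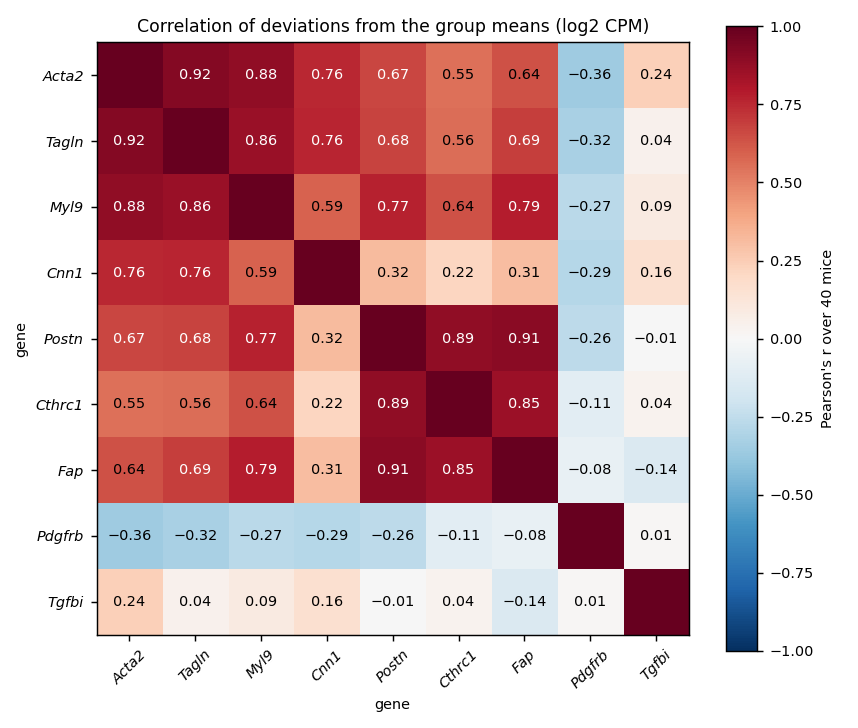
Pearson's r between each pair of the 9 genes over 40 mice, on log2 CPM after subtraction of the group means, as a matrix with the values printed in the cells. The contractile genes reach 0.92 and the fibroblast genes 0.91, and Pdgfrb and Tgfbi stay between -0.36 and 0.24 with all other genes.

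The genes whose pattern was most like each member, by r over the same 40 mice among all genes tested, were shared within the blocks in part. For Postn they were Col5a2, a fibrillar collagen chain (r = 0.97), Svep1 (0.97) and Loxl1, a matrix cross-linking enzyme (0.97). Col5a2 and Loxl1 also led for Cthrc1 (0.90 for both). Fap was closest to Npr1 (0.93), Cygb (0.93) and the proteoglycan gene Bgn (0.92), all highest in mouse 48. Bcam, the gene of a laminin-binding adhesion molecule, was the most alike for Acta2 (0.90), Tagln (0.91) and Myl9 (0.93). Cnn1 and Fap shared none of their 3 with another member, and Cnn1 was closest to Oxtr, the oxytocin receptor gene (0.89), Cxadr (0.89) and Atp6v1b1 (0.88), each highest in mouse 71, with medians of 0.28, 0.26 and 0.083 CPM. Pdgfrb was closest to Mrc2 (0.91), a collagen uptake receptor. Tgfbi was closest to Smpdl3b (0.81), Gatm (0.80) and Sirpb1b (0.79), each highest in mouse 77.

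Other genes of the pathway were read from fixed lists. Of 24 tested TGF-β target genes, 0 passed an adjusted p of 0.05 in the comparison of the 8 groups, and 4 had an unadjusted p under 0.05, beside 0.0271% and 24.7% of all genes. They included Igfbp3 (adjusted p = 0.147 by edgeR, 61.8 to 285 CPM), Timp3 (0.153, highest in mouse 48) and Ltbp3 (0.179). Averaged over both TGFb groups and their partners without it, Smad7, a feedback inhibitor of TGF-β signalling, had a fold change of 0.827 (SE of the log2 fold change 0.095, adjusted p = 0.242 by edgeR), and 1 target was higher and 2 lower at an unadjusted p under 0.05, where 14.1% of all genes were in either direction. For anti-TGFb + anti-PD1 FcS against anti-PD1 FcS alone 0 targets were higher and 5 lower (median log2 fold change -0.19, beside 17.1% of all genes in either direction). For anti-TGFb against the anti-GARP:TGFb antibodies, averaged, 1 was higher and 4 lower (-0.05, beside 21.1%). Against the controls, 0 targets were at that level with anti-TGFb alone (2.32% of all genes), and with its combination 2 were higher and 1 lower (20.1%).

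Of 24 fibroblast and matrix genes, 0 passed the adjusted threshold in the comparison of the 8 groups and 3 the unadjusted one, Fn1 (fibronectin), Thbs1 (thrombospondin 1) and Fbln2 (fibulin 2). Fn1 made up much of the list's summed level, with 908 to 2632 CPM. With anti-TGFb averaged over both backgrounds its fold change was 0.683 (SE of the log2 fold change 0.14, adjusted p = 0.142 by edgeR and 0.0383 by DESeq2), whereas that of Postn was 1.12 (SE of the log2 fold change 0.54). With anti-GARP:TGFb FcD + anti-PD1 FcS against anti-GARP:TGFb FcD, 12 of these 24 genes were higher and 0 lower at an unadjusted p under 0.05. Of all genes, 13.0% were higher and 7.91% lower. The median log2 fold change of the list was 0.93, and Thbs1 was 2.22-fold higher (adjusted p = 0.137 by edgeR). Lum, Dpt and Eln of this list were highest in mouse 71 of the combination, and the other genes in other mice. The count without mouse 71 is not given. Of 21 tested contractile and cytoskeletal genes, 3 were higher and 1 lower in that comparison. These shares are near those of all genes (13.0% higher and 7.91% lower), and the list's median log2 fold change was 0.07. Smooth muscle myosin Myh11 was 4.02-fold higher (adjusted p = 0.135 by edgeR). Mouse 71 of the combination had its highest level, 15.7 CPM against a median of 1.11 over all mice, and the fold change without that mouse is not given. Of 10 tested pericyte and vascular smooth muscle markers 3 were higher, and the list's sum was 75.7 to 152 CPM in the combination and 53.2 to 123 CPM with the single treatment.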

How the data were processed

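Tumor RNA of 40 mice was examined, 5 in each of 8 groups, and each mouse's group was taken from the sample labels. From stranded mRNA libraries read from both ends, the authors deposited raw counts per gene, without normalization. STAR 2.5.3a had aligned the reads to GRCm38, SAMtools 1.6 had handled the alignments and HTSeq 0.9.1 had counted them (versions from the submitters' processing notes). All 40 columns were used. The labels do not say whether libraries were prepared or sequenced together.

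Counts were normalized by TMM and filtered with filterByExpr in edgeR 4.0.16 (R 4.3.3, limma 3.58.1). A robust quasi-likelihood model with a mean per group was fitted to all 40 mice and 14760 genes, and p-values were adjusted over all of them (Benjamini-Hochberg, threshold 0.05). This model took the place of DESeq2, which the authors used, and DESeq2 1.42.0 was an alternative. The SE of a log2 fold change is its size divided by the square root of F, and is left out below 0.1. CPM are counts per 1000000 reads after TMM scaling, log2 CPM carry a prior count of 2, and CPM per kilobase use the exon length of a GENCODE annotation of GRCm38. Correlations and permutations used Python 3.11.15 (numpy 2.4.6, scipy 1.17.1, pandas 2.3.3), and figures matplotlib 3.10.9. The model was also checked on simulated counts. Tests were two-sided. P-values measure the spread between mice. Intervals from counting are not given, and reads without molecular identifiers are not independent molecules.

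The 9 members and the marker and pathway lists were chosen with earlier results of these data known, so no list supports a pattern seen before. Genes named besides the members are the 3 of each list with the smallest p in the comparison of the 8 groups, the 3 genes most alike to each member and the genes that define the marker lists. Smad7 was named after its values were seen. The alternatives were size factors and tests from DESeq2, a fit of all genes without the filter, a model of the compared groups alone, a term for the library set, each mouse left out in turn and, for correlations, a prior count of 0.5. Leaving out mice 71 and 77, with and without the filter, and the contrasts of the anti-PD1 FcS effect between partner antibodies were added after seeing the data.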

Additional observations from a re-analysis of the deposited data

Results flagged for a closer look

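Within groups of 5 mice, the highest or lowest mouse was compared with its nearest neighbour for each of the 9 genes. The gap divided by the range of the group, both in log2 CPM, was set against Dixon's critical value for 5 samples. The levels below are printed in CPM, a scale on which the count of such mice can differ. Of 72 groups examined, 5 held such a mouse, and chance alone gives about 1 in 20. Tagln stood at 18.1 CPM in mouse 48 (anti-TGFb), where the next mouse had 5.09 CPM, and at 16.2 CPM in mouse 47 (anti-PD1 FcS), where the next had 5.92 CPM. Pdgfrb was low in mouse 77 (anti-GARP:TGFb WT + anti-PD1 FcS), at 57.8 CPM against 117 CPM in the next, and high in isotype control mouse 63, at 163 CPM against 145 CPM. Tgfbi was low in mouse 47, at 84.1 CPM against 174 CPM.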

How the results depend on the processing

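Of 3132 fold changes refitted under 47 alternatives, 173 took the other sign, and 0 of these had an unadjusted p under 0.05 in either fit by edgeR or DESeq2. The cause was not tested for any change given here. For the counts of members past an adjusted p of 0.05, 543 refits stayed within 1.5 times the reported count and 9 did not. With anti-GARP:TGFb FcD + anti-PD1 FcS against anti-GARP:TGFb FcD the count rose from 0 to 1 by DESeq2 (Fap, adjusted p = 0.0386) and to 2 with the compared groups alone (Fap and Postn, 0.0469 and 0.0473 by edgeR), where 199 and 476 of all genes passed, and single mice left out gave 0 to 1 (1 without mouse 50). For the WT combination against anti-GARP:TGFb WT that range was 0 to 1 (Cnn1 without mouse 55, adjusted p = 0.0425 by edgeR), and for anti-PD1 FcS averaged 0 to 4 (4 without mouse 48). Among the 8 groups DESeq2 gave 1 member (Cnn1), and single mice left out gave 0 to 1 (Cnn1 without mouse 50 or 53). Between the library sets the count was 0 without mice 71 and 77, since Cnn1 was then not tested, and 1 with no filter. Fn1 with anti-TGFb passed by DESeq2 (adjusted p = 0.0383) and without mouse 53 (0.0378 by edgeR), and Thbs1 and Myh11 in the FcD comparison passed without mouse 50 (0.0472 and 0.0468 by edgeR). The 18 correlated pairs were 18 under both other scalings.

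Counts over all genes moved more. For anti-PD1 FcS averaged, 87 genes became 38 with DESeq2's size factors, 0 with no filter, 888 by DESeq2, 385 with the library set as a covariate, 0 without mice 71 and 77, and 0 (without mouse 43) to 2243 (without mouse 48) with single mice left out. The 4 genes of the 8 groups became 1297 by DESeq2, 35 with the covariate, 9 with no filter and 0 to 2288. The 4 of anti-TGFb against anti-GARP:TGFb became 618, 30, 1 and 0 to 2388, the 1 of anti-TGFb averaged 59, 3, 0 and 0 to 272, and the 248 of the library sets 533 by DESeq2 and 472 without mice 71 and 77. Where the edgeR count was 0, DESeq2 gave 199 genes for the FcD combination against anti-GARP:TGFb FcD, 619 for the WT combination against anti-GARP:TGFb WT and 137 for the anti-TGFb combination against the controls. Single mice left out gave up to 719 (mouse 50), 1707 (55) and 2006 (53) in these comparisons. The FcD combination against the controls gave 14 by DESeq2, 17 with the covariate and 177 with the compared groups alone, and against anti-PD1 FcS the WT combination gave up to 538 (without mouse 52) and the anti-TGFb combination, with 1 gene by edgeR, 78 by DESeq2 and up to 1734 (without mouse 53).

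The signs lost with single mice left out are given as the lowest and the highest log2 fold change, each with the mouse left out in parentheses. Against the controls, anti-PD1 FcS gave Cnn1 -0.74 (47) to 0.22 (52), Fap -0.10 (47) to 0.79 (63) and Pdgfrb -0.072 (47) to 0.15 (52). Anti-GARP:TGFb WT gave Acta2 -0.13 (46) to 0.17 (63), Tagln -0.17 (42) to 0.28 (63), Postn -0.31 (42) to 0.80 (73), Cthrc1 -0.12 (42) to 0.82 (73), Fap -0.16 (42) to 0.38 (63) and Pdgfrb -0.063 (42) to 0.12 (56). Anti-GARP:TGFb FcD gave Acta2 -0.21 (46) to 0.084 (63), Tagln -0.43 (41) to 0.039 (63), Myl9 -0.23 (75) to 0.13 (70) and Tgfbi -0.30 (61) to 0.047 (75). Anti-TGFb gave Acta2 -0.17 (48) to 0.72 (59), Tagln -0.088 (48) to 0.86 (63), Postn -0.61 (48) to 1.25 (59), Cthrc1 -0.076 (48) to 1.54 (59), Fap -0.090 (48) to 1.06 (59), Pdgfrb -0.16 (43) to 0.042 (59) and Tgfbi -0.16 (79) to 0.15 (59). The WT combination gave Tagln -0.35 (77) to 1.16 (63), the FcD combination Tgfbi -0.13 (80) to 0.063 (71), and the anti-TGFb combination Postn -0.73 (53) to 0.42 (66), Cthrc1 -0.69 (53) to 0.34 (66) and Tgfbi -0.062 (46) to 0.074 (74). Averaged over both backgrounds, anti-GARP:TGFb WT gave Acta2 -0.089 (77) to 0.46 (55), Tagln -0.46 (77) to 0.42 (47), Myl9 -0.036 (77) to 0.53 (47), Postn -0.12 (42) to 0.72 (47), Cthrc1 -0.30 (42) to 0.44 (47), Fap -0.14 (42) to 0.36 (47) and Tgfbi -0.053 (47) to 0.085 (52). Anti-GARP:TGFb FcD averaged gave Tagln -0.16 (71) to 0.43 (47), Postn -0.071 (71) to 0.58 (47), Fap -0.041 (71) to 0.48 (47) and Tgfbi -0.030 (61) to 0.15 (75). Anti-TGFb averaged gave Acta2 -0.14 (48) to 0.34 (47), Tagln -0.062 (48) to 0.54 (47), Postn -0.63 (48) to 0.57 (47), Cthrc1 -0.43 (48) to 0.62 (47) and Fap -0.15 (48) to 0.65 (47), and anti-PD1 FcS averaged Tgfbi -0.094 (59) to 0.013 (61). Anti-TGFb against the anti-GARP:TGFb mean gave Acta2 -0.45 (48) to 0.12 (77), Tagln -0.22 (48) to 0.42 (77), Myl9 -0.31 (48) to 0.26 (77), Cnn1 -0.28 (68) to 0.35 (71), Postn -0.87 (48) to 0.14 (42), Cthrc1 -0.17 (48) to 0.66 (42), Fap -0.23 (48) to 0.34 (59), Pdgfrb -0.027 (43) to 0.080 (53) and Tgfbi -0.013 (79) to 0.15 (59). The FcD combination against anti-GARP:TGFb FcD gave Tgfbi -0.073 (80) to 0.31 (61).

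Other settings turned fewer signs. With the library set as a covariate, Cnn1 was at 0.43 for anti-PD1 FcS and 0.17 for anti-TGFb against anti-GARP:TGFb, Tagln at 0.11 and Tgfbi at 0.019 for anti-GARP:TGFb WT, and Cthrc1 at -0.021 for the anti-TGFb combination. For anti-GARP:TGFb WT against the controls, DESeq2 put Tagln at 0.0054 and the fit with no filter put Acta2 at -0.0045. Leaving out mice 71 and 77 was chosen after seeing the data, and values with no filter as well follow in parentheses. Acta2 with anti-GARP:TGFb WT was at -8.1e-05 (-0.0029), Tagln with the WT combination at -0.35 (-0.35) and Myl9 between the library sets at -0.086 (-0.083). Averaged, anti-GARP:TGFb WT gave -0.091 for Acta2 (-0.088), -0.47 for Tagln (-0.46), -0.039 for Myl9 (-0.035), -0.038 for Cthrc1 (-0.035), -0.035 for Fap (-0.030) and -0.0084 for Tgfbi (-0.0078), and anti-GARP:TGFb FcD gave -0.16 for Tagln (-0.17), -0.071 for Postn (-0.073) and -0.041 for Fap (-0.046). Anti-TGFb against anti-GARP:TGFb gave 0.25 for Acta2 (0.25), 0.18 for Postn (0.17) and -0.034 for Pdgfrb (-0.036), and 0.70 for Cnn1 with no filter. A refit without mice 48, 71 and 77 was run once and dropped, since mouse 48 had been picked by the levels of these genes, and its values are not given.

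No paired analysis was possible because the labels give no replicate number that groups share. Cnn1, with a median of 2 reads per mouse, and Cthrc1 and Fap, with few reads in many mice, carry more counting error than the rest.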
